A study of Mus musculus with 21 samples.

Results

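A group of 6 genes whose transcripts were lower in the second pharyngeal arch (PA2) of mouse embryos without HIRE1 were followed through every group of the study: Meox1, Zfp703, Zfp503, Sox8, Mecom and Cntfr. All 6 genes were found by symbol in both count tables, among 24594 genes per table, and all 6 passed the filter on low counts in both. They were chosen by measured values of the same libraries. Meox1, Zfp703 and Zfp503 were selected on their lower level in HIRE1del PA2. Sox8, Mecom and Cntfr were selected on a larger deficit in PA2 than in the third arch (PA3), which used the PA3 libraries too. For these contrasts the values below are a description, with no test. A test is given only for the stages, and for PA3 only for Meox1, Zfp703 and Zfp503.

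RNA-seq was done on 21 libraries in 7 groups of 3. The genotype series held PA2 and PA3 dissected at E10.5 (embryonic day), either wild type (WT) or from embryos homozygous for a deletion of HIRE1 (HIRE1del/del in the labels, with delta-E3 in the library titles; HIRE1del here), a distal element proposed to control Hoxa2. The stage series held cranial neural crest cells (CNCCs) of WT genotype, sorted by flow cytometry from Wnt1::Cre;ROSARFP embryos, taken at E10.5 from PA2 and later (E12.5 and E14.5) from the pinna, the external ear to which PA2 gives rise. Wnt1::Cre marks the neural crest and its descendants, so other cells of the arch are meant to be left out of that series. No agent was given in any group, the background was mixed, and embryos of both sexes were pooled. Tissue was dissociated with trypsin at E10.5 and E12.5 and with papain at E14.5. Organ, stage and, for E14.5, enzyme therefore cannot be told apart in the stage series.

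Hoxa2 is the homeobox gene that gives PA2 its identity, and in mice without it the PA2 skeleton takes on a first-arch pattern and the pinna fails to form. It acts with homeodomain cofactors of the Pbx and Meis families. The 6 genes described here belong to unrelated families. Meox1 encodes a homeodomain factor known from somite development. Zfp703 and Zfp503 encode a pair of related zinc finger corepressors of the NET family, which bind Groucho proteins. Sox8 is a SoxE factor, in a family with Sox9 and Sox10 that serves neural crest, cartilage and glia. Mecom (also Evi1 or Prdm3) encodes a zinc finger regulator of chromatin best known from blood stem cells. Cntfr encodes the alpha subunit of the receptor for ciliary neurotrophic factor, which joins Lifr and gp130 (Il6st) and signals through JAK and STAT proteins.

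The genes lie on 6 chromosomes (GRCm38, GENCODE M21), and none is on chromosome 6 with Hoxa2. Meox1 (ENSMUSG00000001493) is at chr11:101877510-101894374 on the minus strand, and Zfp703 (ENSMUSG00000085795) is at chr8:26977325-26981461 on the plus strand. Zfp503 (ENSMUSG00000039081) is at chr14:21983959-21989601, and Sox8 (ENSMUSG00000024176) is at chr17:25565892-25570686, both on the minus strand. Mecom (ENSMUSG00000027684) is at chr3:29951296-30548008, and Cntfr (ENSMUSG00000028444) is at chr4:41657498-41697089, both on the minus strand. All 6 are protein-coding genes, and the counts are over their exons.

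Because the members were lower together in PA2, the bases before their start sites are shown. RefSeq promoter windows (GRCm38.p6) were matched for 4 of the 6 genes (Mecom, Cntfr, Zfp503 and Sox8; Meox1 and Zfp703 are missing entries), with 10 windows in all since Mecom and Cntfr have several starts. The 250 bases before each start were searched on both strands for TGATNNAT (a Hox-Pbx motif), TGACAG (a Meis motif) and TAATTA (a homeodomain core). TGATNNAT was in 3 windows, of which the Cntfr pair overlap and hold the same match, TGACAG in 2 and TAATTA in 0. Among all 32851 windows of the same length, 7.68% held TGATNNAT, 15.9% TGACAG and 4.84% TAATTA. No match overlapped another motif. The matches are printed 5′ to 3′ on the strand of the gene, with the motif in capitals and, for TGACAG, as its reverse complement.
Mecom, TGATNNAT, 31 bases before a start, chr3:30509773-30509800: caaatcaaagTGATAAATcgctccaaac
Cntfr, TGATNNAT, 123 bases before a start, chr4:41696143-41696170: gtgagcgggcTGATTTATgggaactggg
Mecom, TGACAG, 86 bases before a start, chr3:30013275-30013300: gaggaggctgCTGTCActttaaaaat
Cntfr, TGACAG, 144 bases before a start, chr4:41689309-41689334: ggaatctggcCTGTCAgctcacattc

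The whole windows are given for one Cntfr start, which holds a match, and for the single Zfp503 start, which holds none. Neither window overlaps an annotated exon. G and C made up 58.8% of the Cntfr window and 57.2% of that of Zfp503. A match is a string of letters and was not tested for binding.
Cntfr, chr4:41696038-41696287, minus strand: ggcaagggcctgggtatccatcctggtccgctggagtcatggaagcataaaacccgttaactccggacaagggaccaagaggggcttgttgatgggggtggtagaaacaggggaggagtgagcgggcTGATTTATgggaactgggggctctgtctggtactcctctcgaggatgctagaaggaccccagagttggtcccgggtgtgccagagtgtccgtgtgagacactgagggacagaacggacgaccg
Zfp503, chr14:21989602-21989851, minus strand: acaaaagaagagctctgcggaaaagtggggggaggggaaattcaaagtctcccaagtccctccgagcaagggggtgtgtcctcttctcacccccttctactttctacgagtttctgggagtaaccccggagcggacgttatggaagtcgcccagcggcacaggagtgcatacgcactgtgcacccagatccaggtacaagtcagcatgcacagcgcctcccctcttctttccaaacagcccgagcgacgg

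Levels are given in CPM (counts scaled to the library total, with TMM factors) and differences as log2 fold changes. The genotype libraries held 25.8 to 32.2 M counts each and the sorted ones 25.8 to 49.1 M, and a count of 3 equalled 0.0931 to 0.116 and 0.0612 to 0.116 CPM. The smallest count of any member was 12, for Meox1 at E12.5. The labels call all libraries CNCCs, but the genotype series held markers of other cells. Its 8 endothelial markers summed to 345 to 448 CPM and its 8 erythroid markers to 1534 to 24540 CPM, against 18 to 184 and 2.22 to 11.9 CPM in the sorted series. All 10 markers of crest mesenchyme were seen in every group. In such bulk libraries, fewer cells of a type and less RNA per cell cannot be told apart. The targeted gene followed the labels: Hoxa2 had 73.4, 77.2 and 84.2 CPM in WT PA2 and 5.75, 4.75 and 7.10 CPM in HIRE1del PA2, and 56.0, 63.0 and 65.1 against 23.7, 25.6 and 22.1 CPM in PA3. Hoxa3, its neighbour in the Hoxa cluster, was lower too, with a mean of 3.41 against 0.286 CPM in PA2 and 29.0 against 6.41 CPM in PA3.

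In PA2, every HIRE1del library had less of each member than every WT library, as the choice of the members implies. Over all genes tested, 0.32% (46 of 14383) were called lower in this contrast, which the choice used. Between 35.9% and 65.7% of the WT level was left, against 7.49% for Hoxa2. No member was reduced to the extent of Hoxa2. Ranked by log2 fold change from the lowest, Meox1 stood 25th and Zfp703 281st of 14383 genes.

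**Figure D1:**
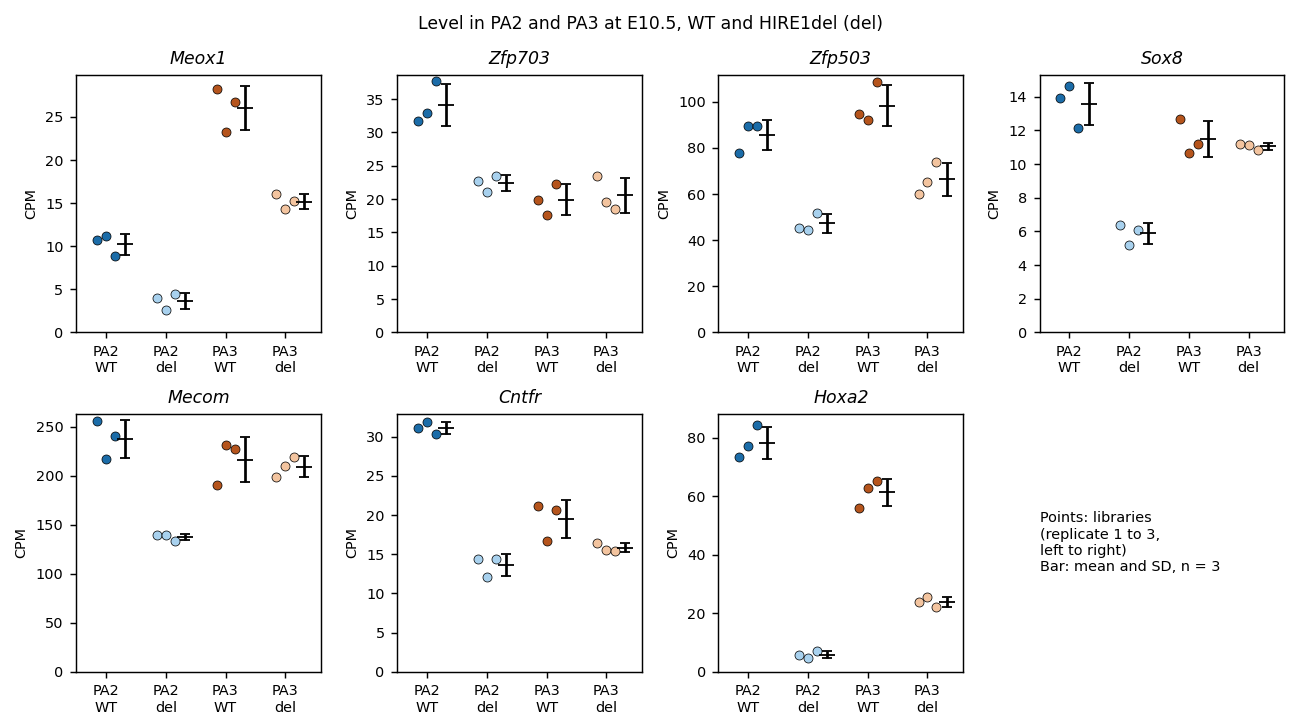
CPM of the 6 members and Hoxa2 in the 12 libraries of the genotype series (linear axes from 0), by arch and genotype. Points are libraries and bars the mean and SD of 3. All 6 members sit lower in HIRE1del PA2 than in WT PA2, whereas in PA3 the points of Zfp703, Sox8 and Mecom overlap between the genotypes.

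Meox1, the homeodomain gene, had 10.7, 11.2 and 8.87 CPM in WT PA2 and 3.98, 2.61 and 4.43 CPM in HIRE1del PA2. The means were 10.2 ± 1.21 and 3.68 ± 0.95 CPM (SD, n = 3 per group), and the log2 fold change was -1.47 (SE 0.162), the largest in size of the 6. HIRE1del replicate 2 was the lowest, with 67 counts. In PA3, Meox1 was higher than in PA2 in both genotypes, at 28.2, 23.2 and 26.8 CPM in WT and 16.0, 14.3 and 15.2 CPM in HIRE1del, and the ranges did not overlap.

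Zfp503, the NET family gene with the higher level, had 77.9, 89.6 and 89.4 CPM in WT PA2 and 45.4, 44.6 and 52.0 CPM in HIRE1del PA2 (log2 fold change -0.86, SE 0.0927). In PA3 it had 94.6, 92.0 and 109 CPM in WT and 60.1, 65.0 and 74.1 CPM in HIRE1del. WT PA3 was the highest of the 4 groups and HIRE1del PA2 the lowest, and no neighbouring groups in that order overlapped.

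Zfp703, the other NET gene, had 31.7, 32.9 and 37.7 CPM in WT PA2 and 22.7, 21.1 and 23.4 CPM in HIRE1del PA2 (log2 fold change -0.61, SE 0.107, the smallest in size of the 6). In PA3 it had 19.8, 17.6 and 22.3 CPM in WT and 23.5, 19.6 and 18.6 CPM in HIRE1del. WT PA2 therefore stood above all other libraries, and the remaining 3 groups overlapped with their neighbours.

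Sox8 had 13.9, 14.6 and 12.2 CPM in WT PA2 and 6.39, 5.18 and 6.10 CPM in HIRE1del PA2 (log2 fold change -1.20, SE 0.114). In PA3 it had 12.7, 10.6 and 11.2 CPM in WT and 11.2, 11.2 and 10.8 CPM in HIRE1del. Only the HIRE1del PA2 libraries stood apart, with 43.4% of the WT PA2 level. Sox8 shares 329 exon bases with the antisense gene 2810468N07Rik, which had a mean of 3.41 CPM in WT PA2 and 2.09 CPM in HIRE1del PA2. Among 17 genes covered by exons of an expressed gene on the other strand, the covered gene had a median of 0.43 of the level per kb of the covering gene among the genotype libraries and 0.00266 among the sorted ones. Per the labels the kit does not mark strand, while the study's methods count reads of the opposite orientation. The ratios differ between the tables, and how far reads of Sox8 and its antisense gene are mixed in the shared bases was not tested. Zfp703 shares 459 exon bases with the antisense gene Gm45371, and Mecom shares 81 with the antisense gene Mecomos. Neither antisense gene was among the counted genes, so their levels are not known here.

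Mecom, the member with the highest CPM, had 255, 217 and 239.9 CPM in WT PA2 and 139, 139 and 134 CPM in HIRE1del PA2 (log2 fold change -0.79, SE 0.076). In PA3 it had 190.4, 231 and 227 CPM in WT and 199, 209.5 and 219 CPM in HIRE1del. The pattern was that of Sox8, with the HIRE1del PA2 libraries below 3 overlapping groups. In absolute terms Mecom had the largest deficit of the 6, with a mean 100.3 CPM lower in HIRE1del PA2.

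Cntfr, the receptor subunit, had 31.1, 31.9 and 30.3 CPM in WT PA2 and 14.4, 12.04 and 14.4 CPM in HIRE1del PA2 (log2 fold change -1.19, SE 0.0981). In PA3 it had 21.2, 16.7 and 20.6 CPM in WT and 16.5, 15.6 and 15.5 CPM in HIRE1del. The PA3 groups did not overlap, but WT replicate 2 and HIRE1del replicate 1 were close.

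The arches were then set side by side. In PA3, where 38.8% of Hoxa2 and 22.1% of Hoxa3 were left, the members fell into 3 patterns. Meox1 and Zfp503 kept 58.3% and 67.5% of the WT level, Cntfr kept 81.3%, and Sox8, Mecom and Zfp703 kept 96.2%, 96.7% and 103%. Expressed as the share of the PA2 log2 change that was also seen in PA3, this was 66.3% for Zfp503 and 53% for Meox1. The share was 36.5% for Hoxa2 itself and 61.6% for Hoxa3, which had only 0 to 15 counts per HIRE1del PA2 library. Cntfr had 25.2%, Mecom 6.09% and Sox8 4.65%. Zfp703 had a small positive value in PA3, whose sign turned under some alternatives (-0.06 to 0.13). The PA3 values of Sox8, Mecom and Cntfr entered their choice, and the differences between members were not tested.

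**Figure D2:**
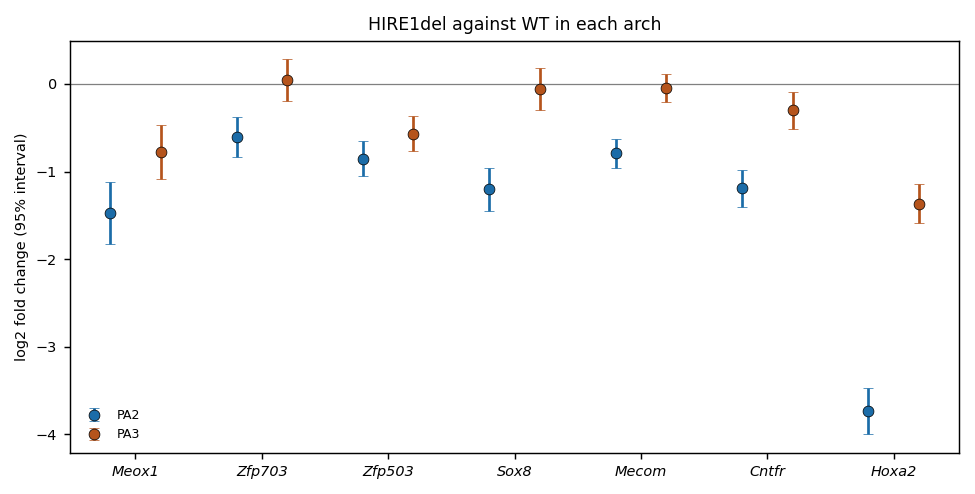
Log2 fold change of HIRE1del against WT for the 6 members and Hoxa2, in PA2 (blue) and PA3 (orange), with 95% intervals from the edgeR fit to all 12 libraries. In PA3 the points run from -0.78 (Meox1) to 0.04 (Zfp703) among the members. The intervals show precision and are no test where the values chose the members, which in PA3 holds for Sox8, Mecom and Cntfr.

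Of the 3 members that could be tested in PA3, Meox1 and Zfp503 fell and Zfp703 did not pass the test. Over all genes, 0.16% (23 of 14383) were called lower in PA3. Meox1 had a log2 fold change of -0.78 (SE 0.142) in the quasi-likelihood test of edgeR (adjusted p 0.0482, Benjamini-Hochberg), and was lower in 3 of 3 libraries. Zfp503 had -0.57 (SE 0.0912; edgeR adjusted p 0.0263), also lower in 3 of 3. Zfp703 had 0.04 (95% interval -0.19 to 0.28; edgeR adjusted p 0.935). Both calls depended on single libraries. That of Meox1 was lost without any one of the 6 PA3 libraries, without WT PA2 replicate 1, 2 or 3 and without HIRE1del PA2 replicate 1, with an edgeR adjusted p of 0.0624 to 0.215 and a log2 fold change of -0.86 to -0.72. That of Zfp503 was lost without WT PA3 replicate 1, 2 or 3, HIRE1del PA3 replicate 1 or 2, or WT PA2 replicate 2 (edgeR adjusted p 0.0501 to 0.149, log2 fold change -0.61 to -0.49), and with the 6 PA3 libraries fitted alone (0.0956). Over all alternatives the adjusted p was 3.34e-05 to 0.215 for Meox1 and 6.24e-06 to 0.149 for Zfp503. PA2 and PA3 libraries of one genotype and number deviated together, so the PA3 values are not taken as independent of the PA2 values by which these genes were chosen.

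The difference of the genotype effects, PA2 minus PA3, chose Sox8, Mecom and Cntfr and contains the PA2 values of all members, so it is given without a test. It was -1.15 (SE 0.157) for Sox8, -0.89 (SE 0.138) for Cntfr, -0.74 (SE 0.107) for Mecom, -0.69 (SE 0.215) for Meox1, -0.65 (SE 0.153) for Zfp703 and -0.29 (SE 0.13) for Zfp503. Hoxa2 had -2.37 (SE 0.158; edgeR adjusted p 1.56e-05). In CPM the order differed, as Meox1 was 10.9 CPM lower in HIRE1del PA3 and only 6.56 CPM lower in HIRE1del PA2, from a WT level in PA3 that was 255% of that in PA2.

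The same values can be read as the difference between the arches within each genotype. Its change from WT to HIRE1del equals the preceding difference with the sign turned, so it is no further result. The choice of Sox8, Mecom and Cntfr used this change itself, and that of Meox1, Zfp703 and Zfp503 used its PA2 part. In WT, PA3 had more Meox1 than PA2 (log2 difference 1.35, SE 0.146) and less Zfp703 (-0.78, SE 0.108) and Cntfr (-0.67, SE 0.0958). Zfp503, Sox8 and Mecom had smaller differences (0.20, -0.24 and -0.13). Without HIRE1, the Meox1 difference was larger (2.04, SE 0.161) and those of Zfp703 and Cntfr were -0.12 (SE 0.109) and 0.22 (SE 0.0995). Sox8 and Mecom, at 84.7% and 91.1% of the PA2 level in WT PA3, then had differences of 0.91 (SE 0.114) and 0.61 (SE 0.0759), at 188% and 153% of the HIRE1del PA2 level. Hoxa2 itself was at 78.4% of its PA2 level in WT PA3 and at 406% in HIRE1del PA3. Cell markers differed between the arches too. The 10 crest mesenchyme markers summed to 1249 to 1421 CPM in WT PA2 and 823 to 1031 CPM in WT PA3. Of these, edgeR called 7 lower and 1 higher in PA3 (17.4% and 19.1% of all genes), and it called all 8 erythroid markers higher. The part of cell content in the arch differences of the members was not tested.

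**Figure D3:**
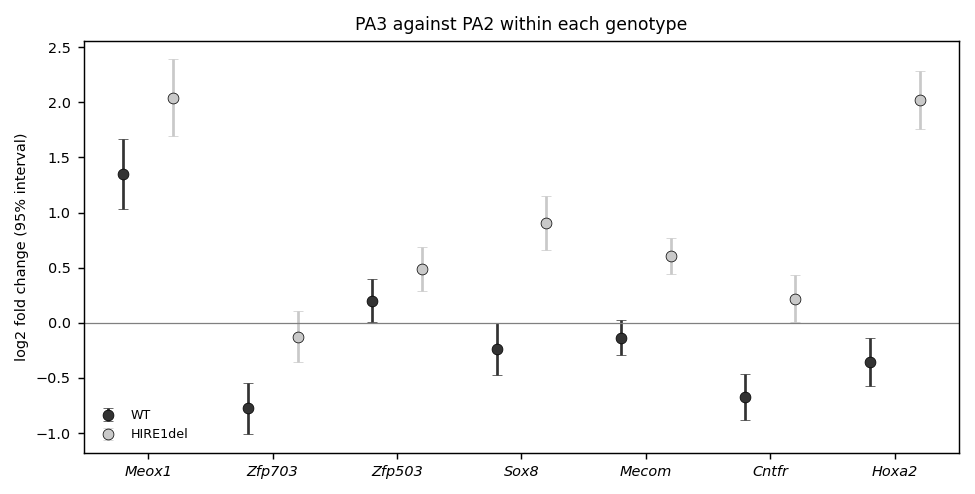
Log2 difference of PA3 against PA2 for the 6 members and Hoxa2 in WT (dark) and HIRE1del (light), with 95% intervals. Every light point is above its dark one. The choice of Sox8, Mecom and Cntfr fixes this shift, and that of Meox1, Zfp703 and Zfp503 on PA2 values favours it. Hoxa2 was no member. The intervals show precision and are no test.

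Markers of other cells were read beside these values. The 8 endothelial markers, relevant to Mecom, summed to 345 to 363 CPM in WT PA2 and 355.4 to 355.5 CPM in HIRE1del PA2. The 6 somitic markers, relevant to Meox1, summed to 11.8 to 14.0 against 11.3 to 13.9 CPM in PA2 (with 1 of the 6 at 0 in either genotype) and to 32.6 to 42.9 against 26.7 to 36.2 CPM in PA3. Their sum was higher in PA3, as Meox1 was, but Pax1 alone had a mean of 5.83 CPM in WT PA2 and 25.6 CPM in WT PA3. Tcf15 had 1.78 and 1.53 CPM. Between the WT arches, edgeR called 2 of 5 tested somitic markers higher in PA3 and 0 lower (19.1% and 17.4% of all genes). The 8 neuronal markers, relevant to Cntfr, summed to 77.0 to 79.1 CPM in WT PA2 and 57.3 to 59.4 CPM in HIRE1del PA2, and all 8 had a negative log2 fold change (median -0.51), with 0 called by edgeR, 1 by DESeq2, 0 by limma-voom and 1 at an unadjusted p under 0.05. In PA3 they were higher than in PA2 (180.3 to 254.9 CPM in WT) while Cntfr was lower. The 6 glial markers, relevant to Sox8, summed to 45.1 to 51.1 CPM in WT PA2 and 34.6 to 43.2 CPM in HIRE1del PA2, and the 8 cartilage markers to 1120 to 1301 and 1396 to 1484 CPM. The part of the neuronal and glial shifts in the Cntfr and Sox8 values was not tested.

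The stage series, which had no part in the choice of the members, was tested for all 6. Stages differed widely, and most genes were called between any pair of them. Consecutive steps share the E12.5 libraries. From PA2 at E10.5 to the pinna at E12.5, 35% of 13438 genes were called higher and 33.7% lower, against 2 and 4 of the 6 members. From E12.5 to E14.5 the shares were 32.6% and 33.1%, against 2 and 4 members. From E10.5 to E14.5 they were 42% and 40%, against 1 and 4 members. The members took 4 courses: Mecom, Sox8 and Zfp703 fell at both steps, Meox1 fell and then rose in part, Zfp503 rose and then fell, and Cntfr rose at both.

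**Figure D4:**
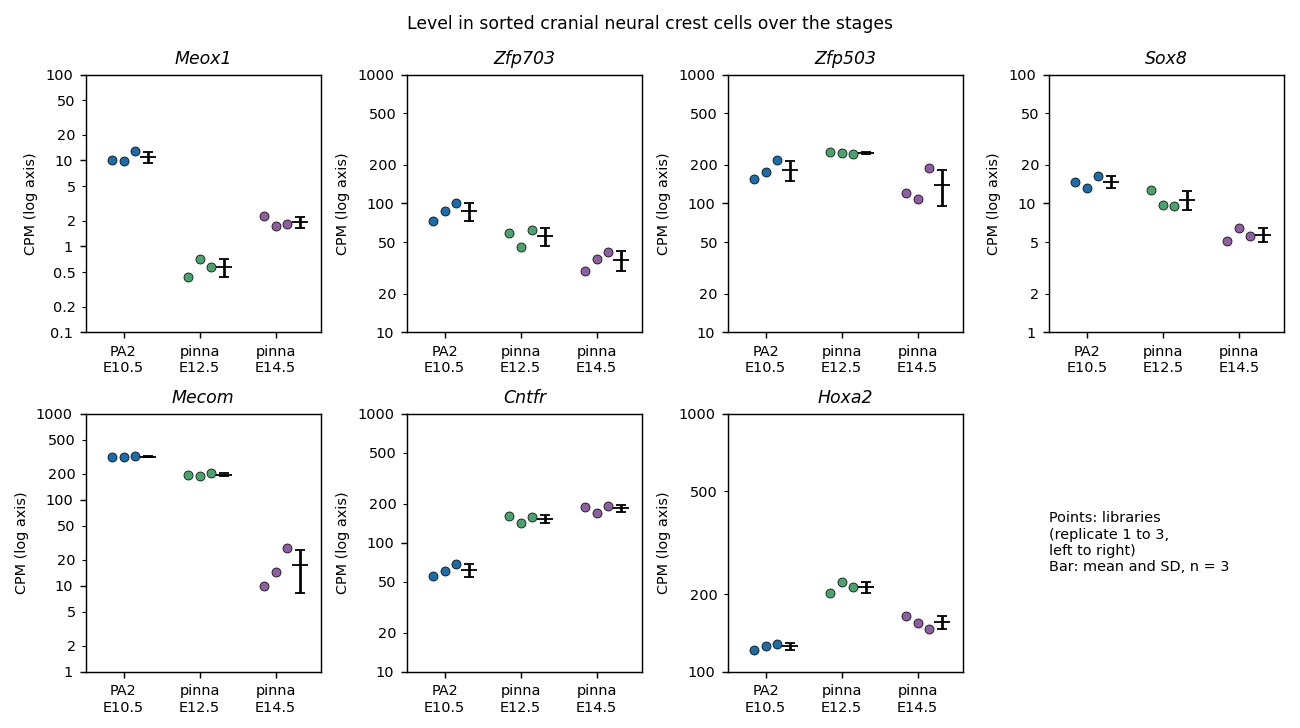
CPM of the 6 members and Hoxa2 in the 9 libraries of sorted CNCCs (log axes), from PA2 at E10.5 to the pinna at E12.5 and E14.5. Points are libraries and bars the mean and SD of 3. Meox1 is lowest at E12.5, Mecom drops at E14.5, and Cntfr is highest at E14.5.

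Meox1 had 10.1, 9.95 and 12.9 CPM at E10.5, 0.446, 0.718 and 0.578 CPM at E12.5 and 2.27, 1.74 and 1.82 CPM at E14.5. At E12.5 only 12, 22 and 17 reads were counted per library. The log2 fold change was -4.22 (SE 0.223; edgeR adjusted p 3.89e-08) from E10.5 to E12.5, which placed it 51st from the lowest of 13438 genes. It then rose by 1.73 (SE 0.231; edgeR adjusted p 5.71e-05) and at E14.5 reached 17.7% of its E10.5 level. No stages overlapped.

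Mecom had 313, 316 and 319 CPM at E10.5, 196, 187 and 204 CPM at E12.5 and 9.93, 14.55 and 27.2 CPM at E14.5. It fell by 0.69 (SE 0.242; edgeR adjusted p 0.0244) and then fell by 3.51 (SE 0.272; edgeR adjusted p 8.44e-07), to 5.45% of the E10.5 level. The E14.5 libraries spread widely, with a coefficient of variation of 51.8% against 0.938% at E10.5. With the 6 libraries of E10.5 and E12.5 fitted alone, the first fall had an edgeR adjusted p of 3.81e-06. In the fit to all stages, the call of the first fall was lost without E10.5 replicate 2 or 3 or any one E12.5 library (edgeR adjusted p 0.0515 to 0.0645), and under DESeq2 (adjusted p 0.0626; range over all alternatives 3.81e-06 to 0.0645). Endothelial markers summed to 120 to 184 CPM at E14.5 against 25.2 to 36.2 CPM at E12.5, a sum that was higher where Mecom was lower. Of these markers 7 were tested, and by edgeR 3 rose and 0 fell at this step (median log2 fold change 0.38), against 32.6% and 33.1% of all genes.

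Sox8 had 14.7, 13.3 and 16.2 CPM at E10.5, 12.7, 9.73 and 9.62 CPM at E12.5 and 5.09, 6.45 and 5.63 CPM at E14.5. It fell by 0.47 (SE 0.14; edgeR adjusted p 0.0115) and then fell by 0.90 (SE 0.144; edgeR adjusted p 0.000216). E12.5 replicate 1 came close to the lowest E10.5 library, and without E12.5 replicate 3 the first call was lost (log2 fold change -0.38, edgeR adjusted p 0.0579). The 6 glial markers summed to 22.7 to 26.8 CPM at E12.5 and 91.4 to 107 CPM at E14.5, higher where Sox8 was lower. The 8 cartilage markers summed to 1667 to 1713, 677 to 719 and 378 to 419 CPM over the stages, lower where Sox8 was lower. Of these 6 were tested. By edgeR 1 rose and 4 fell at the first step (35% and 33.7% of all genes). At the second, 3 rose and 2 fell (32.6% and 33.1%). The part of cell content in the course of Sox8 was not tested.

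Zfp703 had 72.9, 88.0 and 100.5 CPM at E10.5, 59.0, 45.6 and 62.8 CPM at E12.5 and 29.9, 36.9 and 42.3 CPM at E14.5, with no overlap between stages. It fell by 0.64 (SE 0.154; edgeR adjusted p 0.003) and then fell by 0.62 (SE 0.155; edgeR adjusted p 0.00453), nearly equal steps. Both calls held without any one of the 9 libraries.

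Zfp503 had 154, 176 and 216 CPM at E10.5, 249.1, 247 and 244 CPM at E12.5 and 120.3, 108 and 187 CPM at E14.5. It rose by 0.44 (SE 0.179; edgeR adjusted p 0.0478) and then fell by 0.83 (SE 0.18; edgeR adjusted p 0.00176). The rise was lost under DESeq2 (adjusted p 0.0971) and without E10.5 replicate 1 or 2 or any one E12.5 library (edgeR adjusted p 0.0795 to 0.156), with a log2 fold change of 0.33 to 0.46. E14.5 replicate 3 overlapped the E10.5 range, and over the whole course Zfp503 had -0.40 (SE 0.179; edgeR adjusted p 0.0594). Without that library this value was -0.67 with an edgeR adjusted p of 0.000387, and without E10.5 replicate 1 it was -0.51 (edgeR adjusted p 0.0283). The pair of NET genes therefore had opposite first steps, and whether those steps differ was not tested.

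Cntfr had 54.8, 60.9 and 68.9 CPM at E10.5, 161, 141 and 159 CPM at E12.5 and 189.98, 172 and 193 CPM at E14.5. It rose by 1.32 (SE 0.0893; edgeR adjusted p 2.32e-07) and then by 0.27 (SE 0.0866; edgeR adjusted p 0.0184), to 300.1% of the E10.5 level. The second call was lost when libraries were scaled by total counts only (0.14, edgeR adjusted p 0.172), and without E12.5 replicate 2 or E14.5 replicate 1 or 3 (edgeR adjusted p 0.0509 to 0.0749). The 8 neuronal markers summed to 37.4 to 43.6, 30.2 to 36.1 and 11.01 to 17.5 CPM over the stages, a sum that was lower where Cntfr was higher. Of these markers 4 were tested, and by edgeR 1 rose and 3 fell at the first step (35% and 33.7% of all genes). At the second, 1 rose and 1 fell (32.6% and 33.1%), and from E10.5 to E14.5 2 rose and 2 fell (42% and 40%). The part of neuronal content in the course of Cntfr was not tested.

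**Figure D5:**
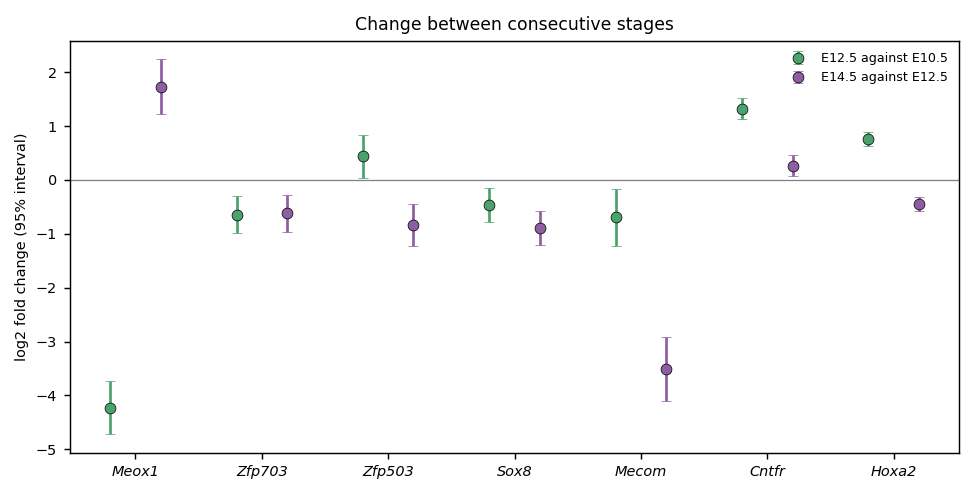
Log2 fold change of the 6 members and Hoxa2 between consecutive stages of sorted CNCCs, E12.5 against E10.5 (green) and E14.5 against E12.5 (purple), with 95% intervals from the edgeR fit to all 9 libraries. Zfp703, Sox8 and Mecom lie below 0 at both steps and Cntfr above 0 at both.

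Hoxa2 rose by 0.76 from E10.5 to E12.5 (SE 0.061; edgeR adjusted p 8.53e-07) and fell by 0.45 to E14.5 (SE 0.0605; edgeR adjusted p 5.88e-05), ending at 124% of its E10.5 level. Zfp503 was the member with the same signs at both steps. Cntfr shared the first sign, and Zfp703, Sox8 and Mecom the second. Meox1 had the opposite sign at both. In WT CNCCs the 6 genes thus took courses that differed from each other, and Mecom and Sox8 were lower at E14.5 than at E10.5 while Hoxa2 was higher.

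Set against the arches, the pairs of members that were alike in one series were often unlike in the other. Sox8 and Mecom overlapped between the WT arches, had their lowest levels in HIRE1del PA2, and fell at both stage steps. Across the 12 genotype libraries their log2 CPM had a Pearson r of 0.91, and across the 9 stage libraries 0.94. Sox8 and Cntfr had r of 0.79 in the genotype series and -0.82 in the stage series, and Meox1 and Zfp503 0.83 and -0.29. These correlations describe libraries that share arch, genotype or stage and have no test. The choice of the members by lower values in HIRE1del PA2 favours a high r between them in the genotype series. For Sox8, Mecom and Cntfr the choice also used PA3, so their genotype r is no further result. Between the series, the levels in PA2 at E10.5 differed by member: the sorted CNCCs had 1.07 times the Meox1 and 1.09 times the Sox8 of WT PA2 in the genotype series, but 2.56 times the Zfp703, 2.13 times the Zfp503 and 1.98 times the Cntfr. The tables were made from different libraries and read types. Cell content differed too, with erythroid markers at 2.31 to 7.72 CPM in the sorted PA2 cells and 1534 to 2408 CPM in WT PA2. These ratios therefore have no test.

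Per kb of exon, levels can be compared between genes. The exon widths used were those supplied with the counts. For Mecom this was 10576 bases against 12427 in GENCODE M21, and for Hoxa2 2260 against 1775. The other members had equal widths. The places of Mecom and Hoxa2 in the order below therefore depend on the width used. In WT PA2, Mecom (22.5 CPM per kb) and Zfp503 (20.3) were the highest members and Sox8 (4.35) and Meox1 (4.59) the lowest, with Cntfr (11.2) and Zfp703 (10.1) between them. Hoxa2 had 34.6. In the E14.5 pinna, Cntfr (66.4 CPM per kb) was the highest, close to Hoxa2 (68.8), and Mecom (1.63) and Meox1 (0.872) the lowest. In sorted CNCCs only Zfp503 exceeded Mecom at E10.5, and only Meox1 was below it at E14.5.

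Genes with the most similar profile were sought among 12871 genes that passed the filter in both tables. Likeness was the smaller of Pearson's r over the 12 genotype and the 9 stage libraries. The best 2 were Pax9 (0.936) and Cdkn2b (0.932) for Meox1, Tcaf2 (0.912) and Pou3f4 (0.858) for Zfp703, and Msantd1 (0.806) and Ptx3 (0.805) for Zfp503. For Sox8 they were Mecom (0.905) and Sytl4 (0.873), and for Mecom Sox8 and Crmp1 (0.891). For Cntfr they were Meis2 (0.904), a Hox cofactor gene, and Ntn1 (0.879), the gene of the guidance cue netrin. The points share library, arch and stage, and the values are a description. For the pair of Sox8 and Mecom, the choice of both by the same arch difference also favours a high r over the genotype libraries.

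Among 4 close relatives of the members, 0 were called in PA2 and 0 in PA3 by edgeR, DESeq2 or limma-voom, with 1 and 2 at an unadjusted p under 0.05 in edgeR. Meox2, the paralog of Meox1, had a log2 fold change of 0.07 in PA2 (edgeR adjusted p 0.965) and rose by 2.73 from E10.5 to E12.5 (edgeR adjusted p 1.96e-06), the step at which Meox1 fell, before it fell (-4.41). Sox9 had 0.24 in PA2 and Prdm16, the paralog of Mecom, 0.12, neither of them called. Over the stages Sox9 (-1.36 and -4.11) and Prdm16 (-1.24 and -1.51) fell at both steps by edgeR, the directions of Sox8 and Mecom. Sox10 had -0.85 in PA2 and -0.87 in PA3, neither called, and rose by 2.16 from E12.5 to E14.5.

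Genes that work with the members were read from lists, each with its count of calls by edgeR over all genes. Of the 6 lists that follow, 0 to 3 genes per list had an unadjusted p under 0.05 in PA2 or PA3. DESeq2 called 1 further gene in PA2 in each of the Groucho and CtBP lists and 1 higher and 1 lower in PA3 in the Meox list, and limma-voom called none further. In PA2, 0 of 17 tested genes of the Cntfr receptor complex and JAK-STAT signalling were called (median log2 fold change -0.07, against -0.01 over all genes), including the coreceptors Lifr (-0.19) and Il6st (-0.13). In PA3, 1 was called, the feedback inhibitor Socs2 (-0.47). Over the stages, 11 of 16 tested genes were called higher and 3 lower at E12.5 (median 0.42, against 0.01 over all genes, and 35% and 33.7% of all genes called). Lifr rose by 0.50 and Il6st by 0.24 at that step, and Cish (1.17), a feedback inhibitor, was among the genes with the largest changes. From E12.5 to E14.5, 10 were called higher and 2 lower (32.6% and 33.1% of all genes), led by Stat5a (2.63), a transducer, and Socs3 (0.99), and from E10.5 to E14.5, 12 and 2 (42% and 40% of all genes), led by Stat5a (2.99) and Cish (1.66).

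Among Groucho corepressors and other partners of the NET proteins, 0 of 9 were called in PA2 and 0 in PA3 (medians 0.04 and -0.01). Beside the stage counts below, 35% and 33.7% of all genes were called higher and lower at the first step. The shares were 32.6% and 33.1% at the second step, and 42% and 40% from E10.5 to E14.5. At E12.5, 3 rose and 2 fell, the largest being Tle2 (1.97) and Tle4 (1.47), and at E14.5 against E12.5, 0 rose and 7 fell, the largest being Tle1 (-0.96) and Tle3 (-0.72). From E10.5 to E14.5, 2 rose and 6 fell, led by Tle2 (2.21) and Phb2 (-1.30). Of the CtBP and Mecom partners, 0 of 9 were called in either arch, and over the stages 0, 2 and 3 rose and 4, 4 and 5 fell at the first step, the second step and over the whole course. Gata2, a blood and endothelial factor, fell at each step, from a mean of 3.54 CPM at E10.5 to 3 or 4 counts per library at E12.5 and 0 to 2 counts at E14.5, too few for a fold. Ctbp2 fell at the first step (-1.44) and Runx1 rose at the second (2.15). Ehmt2 fell from E10.5 to E14.5, with widely spread libraries (1.05 to 14.04 CPM and 0.252 to 0.722 CPM).

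Of 7 tested genes of the PRDM family, 0 were called in either arch, and over the stages 2, 2 and 2 rose and 2, 4 and 4 fell. Beside these counts and those of the lists below, 35%, 32.6% and 42% of all genes were called higher. The shares called lower were 33.7%, 33.1% and 40%. Prdm1 rose by 3.35 and 1.86 and Prdm6 fell (-1.72 and -1.03) at the steps. Of 6 tested SoxC and SoxD genes, 0 were called in either arch. Of 5 tested over the stages, 4 fell at the first step, 4 at the second and 5 over the whole course. Among the largest were Sox11 (-0.78, -2.46 and -3.24) and Sox13 (-2.30 at the first step, -2.18 from E10.5 to E14.5). Sox4 had -1.52 at the second step. Of the partners and targets of Meox genes in mesoderm, 1 of 9 was called in PA2, Tbx22, a T-box gene, which was higher (2.48, not called by DESeq2), and 0 in PA3. At the first stage step 3 of 8 rose and 4 fell, at the second 1 rose and 6 fell, and from E10.5 to E14.5 2 rose and 4 fell. Pax1 rose at the first step, from 0 or 1 count per library to 34 to 52 counts, and Foxc1 fell (-4.63). Nkx3-2 fell from a mean of 5.05 CPM at E10.5 to 0.248 CPM at E12.5 and 0 counts in all 3 libraries at E14.5. Foxc2 fell from 43.6 to 2.74 CPM and then to 0 to 8 counts per library. No fold is given against these groups of few counts.

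Meis1, Meis2 and Fzd4, which the study names with Meox1, Zfp703 and Zfp503 as known Hoxa2 targets, were called lower in PA2 (3 of 3, at -0.51, -0.67 and -0.88), a list that was named from these libraries and so is no independent evidence. In PA3, 0 of 3 were called by edgeR, DESeq2 or limma-voom, with 1 at an unadjusted p under 0.05. Over the stages Meis1 and Meis2 rose at the first step, by 0.78 and 0.52, as Cntfr did, and Fzd4, a Wnt receptor, fell at both steps (-0.55 and -4.96), as Mecom did.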

How the data were processed

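Values are counts of alignments per gene that the authors deposited without normalization. Per the study's methods, reads of 50 bases (single-end in the stage series, paired-end in the genotype series) were aligned with QuasR to GRCm38 and counted over exons of UCSC known genes. Per the labels, the kit did not mark strand. The methods give the counting orientation as opposite. Columns were matched to samples by title, and 0 columns of values were left unused.

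Each table was fitted in R 4.3.3 with edgeR 4.0.16: genes reaching 1 CPM in 2 or more libraries, TMM scaling (factors 0.983 to 1.01 and 0.946 to 1.04), a mean per group, the two-sided quasi-likelihood test and Benjamini-Hochberg adjustment over all genes. The threshold for a call was an adjusted p of 0.05. No test was made between the tables. Correlations used log2(CPM + 0.5). Intervals are 95% intervals of the fit. Replicates were stated to be independent biological replicates, and chi-square per degree of freedom between them was 7.02 to 46.7, so none was a copy. The pipeline was tested on simulated data.

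The members and lists were chosen with earlier results of these data known. Named beside the members were Hoxa2, Hoxa3, the paralogs, Lifr and Il6st, up to 2 called genes of each list with the largest change, and the 2 most similar genes per member. A gene that this rule names is not reported here. Library numbers were checked for pairing: deviations from the group mean correlated between the arches within a genotype for equal numbers (r 0.23 to 0.382 in WT, 0.213 to 0.342 in HIRE1del), and not consistently between genotypes or stages. Alternatives were DESeq2 size factors, total counts only, 3 other filters, DESeq2 1.42.0 and limma-voom (limma 3.58.1) tests, the 6 libraries of a contrast alone, a replicate block, an embryo pool block where arches were compared, and leaving out each library.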

Additional observations from a re-analysis of the deposited data

How the results depend on the processing

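The 6 members kept the sign of their log2 fold change under every alternative in PA2 (21 alternatives per member) and in all 3 stage contrasts. In PA3 the sign of the small values of Zfp703 (-0.06 to 0.13), Sox8 (-0.11 to 0.02) and Mecom (-0.13 to 0.00) turned under some alternatives. The number of members called changed as follows. In PA3, 2 of the 3 tested members were called, 1 with a filter of 1 CPM in every library or with the 6 PA3 libraries fitted alone, and 0 to 2 when single libraries were left out. For E12.5 against E10.5, 6 were called, and 3 to 6 with a library left out, the lowest without E12.5 replicate 3. For E14.5 against E12.5 and against E10.5, 6 and 5 were called, and no alternative moved these by more than 1.5 times. With the replicate number as a block (replicate block), 6, 6 and 6 members were called in the stage contrasts and 2 in PA3. The block added Zfp503 for E14.5 against E10.5 (edgeR adjusted p 0.0190) and changed no other call. The stage numbers share only a number, and so do WT and HIRE1del numbers. Zfp503 gained that call also with total counts, no filter and limma-voom. With 1 CPM required in every library, Meox1 could not be fitted over the stages. At 12 to 22 counts per library, the E12.5 level of Meox1 is the least precise value given. The causes were not tested.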
